A study of Homo sapiens with 9 samples.

Results

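Integrins and laminins are the receptors and the main adhesive proteins of the basement membrane, and their genes were followed here in breast cancer cells given 2-deoxy-D-glucose (2-DG). The genes were taken by symbol: the integrin alpha and beta subunits and the laminin alpha, beta and gamma chains. This gave 38 of the 61552 genes listed, 18 integrin alpha, 8 integrin beta and 12 laminin genes. The cells were MDA-MB-231, an established human triple-negative breast cancer line of wild-type genotype, and 2-DG is a glucose analogue that blocks glycolysis. RNA was sequenced from 3 groups of 3 libraries, all after 24 h: control cells at 0 mM 2-DG, which the study's methods give as phosphate-buffered saline, cells at 10 mM 2-DG and cells at 20 mM 2-DG. The values are FPKM, reads scaled to the length of the gene model and to the total reads of the library, and the steps between low values gave library totals of 30974968 to 40843638 reads.

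Most markers of the line were present. VIM, the mesenchymal filament vimentin, stood at 243 to 313 FPKM over the 9 libraries, CD44 at 52.9 to 74.1 and AXL at 89.9 to 126. SPARC, listed with them as a mesenchymal marker, went against the list at 0.0188 to 0.215 FPKM. CDH1, the epithelial junction gene of E-cadherin, stood at 0.417, 0.400 and 0.278 FPKM in control, 0.0515, 0.0484 and 0.0479 at 10 mM and 0.0691, 0.0621 and 0.0747 at 20 mM, and EPCAM reached at most 4.51 FPKM. The hormone receptor genes ESR1 and PGR reached at most 0.00829 and 0.0204 FPKM, while the luminal keratin KRT8, listed as low in the line, stood at 153, 137 and 133 FPKM in control, 87.8, 102 and 84.3 at 10 mM and 87.5, 85.0 and 80.5 at 20 mM. The 5 leukocyte markers summed to 0.0305 to 0.266 FPKM, led by LYZ. The 4 platelet markers summed to 0.264 to 0.870 FPKM, led by GP1BA, with PPBP and GP9 at 0 throughout. The 3 endothelial markers summed to 0.854 to 1.95 FPKM, led by PECAM1 at 1.44, 1.79 and 1.95 FPKM in control, 1.15, 1.43 and 1.10 at 10 mM and 0.826, 1.05 and 0.867 at 20 mM, while CDH5 and VWF reached at most 0.00480 and 0.0368 FPKM. In bulk RNA, fewer cells of a kind and less RNA per cell cannot be told apart.

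Each integrin is a pair of an alpha and a beta subunit that spans the membrane and ties matrix proteins outside the cell to actin or keratin filaments inside it. Each laminin is a trimer of an alpha, a beta and a gamma chain, and laminin-332, which holds the chains of LAMA3 and LAMB3, anchors epithelial cells through the integrins of ITGA3 with ITGB1 and ITGA6 with ITGB4. In breast tissue these proteins hold the epithelium to its basement membrane, and in cancer cells they serve adhesion and migration.

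The promoters of 4 genes called at both doses are printed, LAMB3 and ITGA2 as genes that rose and LAMA3 and ITGB5 as genes that fell, to show the sequence at 1 annotated start of each for genes that moved in opposite directions. They run from 250 bases before to 50 bases after the start, 5′ to 3′ on the gene's strand, from RefSeq on GRCh38.p14: LAMB3 on the minus strand at chr1:209652376-209652675, ITGA2 on the plus strand at chr5:52989102-52989401, LAMA3 on the plus strand at chr18:23872770-23873069 and ITGB5 on the minus strand at chr3:124901369-124901668. Capitals mark matches, on either strand, to the letters of an AP-1 site, a GC box, a TATA box or a composite of C/EBP and ATF sites, each spelled out after the sequences. The LAMA3 start lies 183577 bases inside the gene as GENCODE bounds it and near 1 of its 15 transcript starts, and which start these cells use was not tested.
LAMB3: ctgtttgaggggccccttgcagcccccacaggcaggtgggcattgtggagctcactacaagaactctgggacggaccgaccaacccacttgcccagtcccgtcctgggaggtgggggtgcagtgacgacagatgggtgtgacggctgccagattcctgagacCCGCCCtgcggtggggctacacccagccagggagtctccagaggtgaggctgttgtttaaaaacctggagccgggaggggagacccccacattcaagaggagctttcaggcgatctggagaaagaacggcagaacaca
ITGA2: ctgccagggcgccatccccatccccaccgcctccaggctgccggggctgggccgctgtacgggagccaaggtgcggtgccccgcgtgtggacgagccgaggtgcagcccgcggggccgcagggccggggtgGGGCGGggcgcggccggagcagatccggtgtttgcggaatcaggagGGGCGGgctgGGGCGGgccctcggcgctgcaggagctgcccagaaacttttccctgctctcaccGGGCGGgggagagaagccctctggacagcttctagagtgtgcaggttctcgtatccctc
LAMA3: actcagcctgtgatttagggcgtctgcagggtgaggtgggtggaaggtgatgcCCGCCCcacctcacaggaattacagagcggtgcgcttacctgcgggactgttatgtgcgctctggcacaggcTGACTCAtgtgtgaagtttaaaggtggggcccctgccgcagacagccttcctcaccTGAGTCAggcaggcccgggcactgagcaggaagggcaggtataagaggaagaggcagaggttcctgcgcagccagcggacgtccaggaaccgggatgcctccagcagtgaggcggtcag
ITGB5: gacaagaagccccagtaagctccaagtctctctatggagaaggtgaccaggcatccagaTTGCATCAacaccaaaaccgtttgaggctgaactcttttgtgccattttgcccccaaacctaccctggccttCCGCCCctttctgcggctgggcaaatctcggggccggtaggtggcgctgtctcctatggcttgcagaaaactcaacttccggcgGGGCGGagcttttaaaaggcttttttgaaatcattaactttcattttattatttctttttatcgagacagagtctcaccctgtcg
The table held 26 of the 38 genes, with 1 start kept for each, that of ITGB1 also far inside its gene (47562 bases). LAMA3 had 2 matches to the AP-1 letters TGACTCA, ITGA5 had 1, and these were 2 of the 26 genes, against 4.95% of 35116 promoters. The GC box, spelled GGGCGG, was in 14 of the 26 and in 45.0% of all promoters, with 4 matches in ITGA2, 2 in ITGB5 and 1 each in LAMB3 and LAMA3. The composite letters TGATGNAA were in ITGB5 alone of the 26, against 3.62% of all promoters, while of the 26 only ITGA6 had the letters TATAAA, found in 11.5% of all promoters.

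Of the 38 genes, 36 had reads in at least 1 library and 26 had enough reads to be tested. The gene models that the FPKM values imply are longer than the GENCODE exons for some members, 2.42 times as long for ITGB1, 2.28 times for LAMB1 and 2.55 times for LAMA2. For the same reads, this lowers their FPKM against other genes but not the ratio of FPKM between groups. On the log2(FPKM + 1) scale used below, a lower FPKM also understates the change. Whether the longer models take in other reads was not tested. Mean FPKM over the 9 libraries was highest for LAMB3 (187) and ITGA3 (183), followed by LAMB2 (81.1), LAMA5 (65.5), ITGB1 (55.3) and LAMC1 (52.1). A middle tier held ITGA2 (48.1), ITGA5 (47.1), ITGB4 (40.7), ITGA6 (36.9) and ITGB5 (33.3 FPKM). Lower levels were seen for LAMB1, LAMA3, ITGAV, ITGB2, ITGAE, ITGA1 and ITGA10, from 11.2 down to 1.19 FPKM. ITGB3, LAMA1, LAMA4, ITGB7, ITGA7, ITGB8 and LAMA2 were tested at means under 1 FPKM.

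The other 10 genes with any read were not tested: ITGA2B, ITGA9, ITGAM, ITGA11, ITGB6, ITGAX, LAMB4, ITGAD, LAMC3 and ITGA4, with means of 0.0363 FPKM or less. ITGA11, the alpha subunit of a fibrillar collagen receptor, had 2, 0 and 1 reads in control, 5, 4 and 16 at 10 mM and 7, 9 and 9 at 20 mM. ITGA9 had 3, 12 and 1 reads in control, 3, 1 and 3 at 10 mM and 7, 28 and 8 at 20 mM. The read counts of both were picked after the values were seen. ITGAL and ITGA8 had 0 reads in every library, where 3 reads, the limit that a count of 0 allows, would be 0.0113 to 0.0150 FPKM for ITGAL and 0.00976 to 0.0129 FPKM for ITGA8 at GENCODE exon length, for counting error alone. The genes of the leukocyte integrins ITGAL, ITGAM, ITGAX and ITGAD were thus at or near 0.

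**Figure D1:**
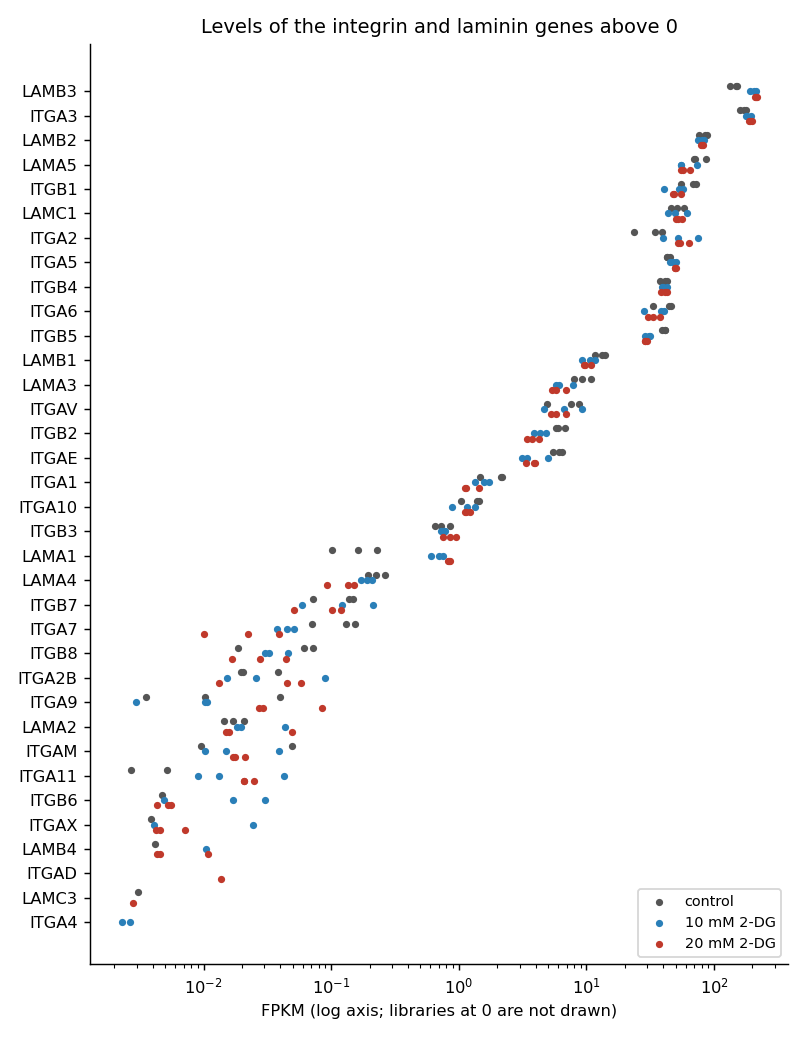
FPKM on a log axis of 35 integrin and laminin genes above 0, with a point per library, grey for control, blue for 10 mM and red for 20 mM 2-DG. LAMB3 and ITGA3 lead the order, and the 10 genes not tested have means of 0.0363 FPKM or less.

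Before the comparisons, 4 libraries need naming. Control replicate 1 and 10 mM replicate 2 deviated from their group means together, with a correlation across the 16570 genes tested of 0.521, and control replicate 2 deviated with 10 mM replicate 1 (0.488). Genes are not independent replicates and these are descriptions. The deviations also ran with gene length, with Spearman coefficients across genes of -0.30 for control replicate 1 and -0.36 for 10 mM replicate 2, against 0.30 for control replicate 2 and 0.37 for 10 mM replicate 1. These 4 are called length-linked here. Integrin and laminin genes are long: 24 of the 26 tested exceeded the median length of the genes tested. The part of this in each result was not tested beyond the added fits given below, which leave out either pair of libraries or all 4 length-linked libraries, or remove the trend on length.

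The first comparison asked what 20 mM 2-DG did against control. A gene is called here at a Benjamini-Hochberg adjusted p under 0.05 from limma on log2(FPKM + 1), over all genes tested. At 20 mM, 6 integrin and laminin genes rose and 9 fell of the 26 tested, beside 15.4% and 21.6% of all 16570 genes called higher and lower. ITGA2, LAMA1, LAMB3, ITGA5 and ITGA3 were among the genes that rose. The genes that fell were ITGB2, LAMA3, ITGAE, ITGB5, ITGA1, LAMA5, LAMB1, ITGA7 and LAMA4. With 2-fold and an unadjusted p under 0.05, the thresholds of the study, put on log2(FPKM + 1), a scale that understates low genes, 0 of the 26 passed at either dose, beside 1.74% of all genes at 10 mM and 2.92% at 20 mM. With the same thresholds on limma-voom fits of the recovered reads, a choice made after the data were seen, LAMA1 passed as higher and ITGA7 as lower at both doses, 2 of the 26, beside 9.54% and 12.7% of all genes. The median log2 fold change of the 26 was -0.06, and that of all genes tested -0.02. The 20 mM and control libraries did not overlap for 16 of the 26, beside 8825 of the 16570 genes.

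At 10 mM, 4 rose and 5 fell, beside 12.1% and 17.5% of all genes. ITGA2, LAMA1 and LAMB3 were among those that rose, and those that fell were ITGAE, LAMA3, ITGB2, ITGB5 and LAMB1. The 2 comparisons share their control libraries. The median log2 fold change was -0.04 for the 26 and -0.01 for all genes. The 10 mM and control libraries did not overlap for 12 of the 26, beside 6717 of the 16570 genes. Without control replicate 1 and 10 mM replicate 2, a choice made after the data were seen, 4 rose and 6 fell at 10 mM, the 6 with ITGB1, and 6 rose and 9 fell at 20 mM, the 9 with ITGA6 and ITGB1 and without ITGA7 and LAMA5. Without the opposite pair, control replicate 2 and 10 mM replicate 1, also chosen after the data were seen, 4 rose and 3 fell at 10 mM, LAMA3, ITGB5 and LAMA5, and 6 rose and 6 fell at 20 mM, without ITGA1, ITGA7 and LAMA4. Without all 4, which leaves 1 control and 1 10 mM library that are assumed to vary like the 20 mM group, LAMB3 and LAMA1 rose and ITGAE and ITGB5 fell at 10 mM, and 6 rose and 8 fell at 20 mM, the 8 with ITGA6 and ITGB1 and without ITGA7, LAMA4 and LAMA5. Leaving out single libraries gave 3 to 4 higher and 2 to 7 lower at 10 mM, and 3 to 6 higher and 4 to 10 lower at 20 mM. The count of genes lower at 10 mM was 3 without control replicate 2, 3 without 10 mM replicate 2 and 2 without 10 mM replicate 3. The count of genes higher at 20 mM was 3 without control replicate 1 and 3 without 20 mM replicate 3. The count of genes lower at 20 mM was 4 without control replicate 2, 5 without 20 mM replicate 1 and 4 without 20 mM replicate 2. The p-values measure only the spread between these libraries, since the labels do not say that they came from separate cultures.

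Some markers of cell kind also moved with treatment. Of 12 tested, 4 fell at 10 mM and 6 at 20 mM and 0 rose by limma, beside 17.5% and 21.6% of all genes called lower. CDH1 fell by 0.38 ± 0.044 (SE, limma adjusted p = 1.93e-04) and by 0.35 ± 0.044 (SE, limma adjusted p = 2.07e-04) on the log2(FPKM + 1) scale, and its mean FPKM was 7.41 and 5.32 times lower. KRT8, ERBB2 and CD44 fell at both doses, with log2 fold changes at 20 mM of -0.73, -0.54 and -0.30, and GATA3 (-0.39) and PECAM1 (-0.51) at 20 mM, where the mean FPKM of PECAM1 was 1.89 times lower. The CD44 call at 10 mM was lost without control replicate 2 (log2 fold change -0.21, limma adjusted p 0.0776, against 0.00809 to 0.170 over all alternatives) and with all genes above 0 tested, without control replicate 2 and 10 mM replicate 1 together and without the 4 length-linked libraries, and the GATA3 call without control replicate 1 or 20 mM replicate 1 (log2 fold change -0.35 to -0.32, limma adjusted p 0.0517 to 0.0600, against 0.0102 to 0.0738 over all alternatives) and without the 4 length-linked libraries. The ERBB2 call at 10 mM was lost without the 4 length-linked libraries. The part of these shifts in the integrin and laminin results was not tested.

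The 2 doses were then set against each other. No integrin or laminin gene was called between 20 and 10 mM by limma, beside 0% of all genes higher and 0% lower. None of the 26 had an unadjusted p under 0.05, against 1140 of the 16570 genes, and limma-voom on the recovered reads also called 0. The log2 fold changes ran from -0.19 to 0.13, and their 95% intervals reached from -0.64 to 0.57. A gene called at 20 mM and not at 10 mM is therefore not shown to differ between the doses.

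**Figure D2:**
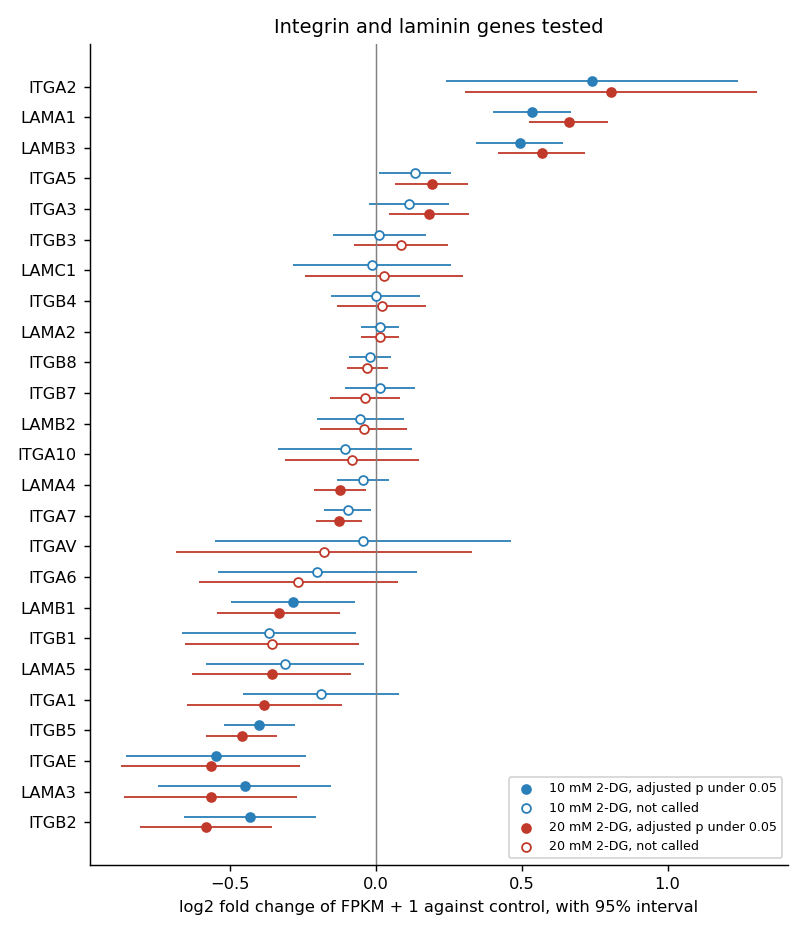
Log2 fold change of FPKM + 1 against control for 25 of the genes tested, with 95% intervals from limma, in blue for 10 mM and red for 20 mM. Filled points are called at an adjusted p under 0.05, which holds for 8 of those drawn at 10 mM and 14 at 20 mM.

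Of the laminin-332 chains, LAMB3 rose while LAMA3 fell. LAMB3 (ENSG00000196878, GRCh38 chr1:209614870-209652466), the beta chain, stood at 151, 147 and 134 FPKM in control, 204, 215 and 191 at 10 mM and 211, 215 and 216 at 20 mM. Every treated library lay above every control library. Its log2 fold change was 0.49 ± 0.067 (SE, limma adjusted p = 5.33e-04) at 10 mM and 0.57 ± 0.067 (SE, limma adjusted p = 1.57e-04) at 20 mM, a ratio of means of 1.48 at 20 mM. LAMB3 kept its calls at both doses in every alternative but the 2-fold threshold on either scale.

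LAMA3 (ENSG00000053747, GRCh38 chr18:23689443-23956222), the alpha chain of laminin-332, moved the other way, at 8.03, 10.9 and 9.18 FPKM in control, 7.83, 5.82 and 6.11 at 10 mM and 5.33, 5.74 and 6.87 at 20 mM. Control replicate 1 was the lowest control and 10 mM replicate 1 the highest treated library, and the groups did not overlap. The log2 fold change was -0.45 ± 0.13 (SE, limma adjusted p = 0.0288) at 10 mM and -0.57 ± 0.13 (SE, limma adjusted p = 0.00791) at 20 mM. The 10 mM call was lost without control replicate 2, control replicate 3, 10 mM replicate 2 or 10 mM replicate 3 (log2 fold change -0.46 to -0.35, limma adjusted p 0.0665 to 0.0997, against 0.00546 to 0.0997 over all alternatives) and with all genes above 0 tested and without the 4 length-linked libraries, and the 20 mM call held without each library.

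Within each library, the ratio of LAMB3 to LAMA3 FPKM was 18.8, 13.5 and 14.6 in control, 26.0, 36.9 and 31.3 at 10 mM and 39.6, 37.4 and 31.4 at 20 mM. The ratio of LAMB3 to LAMB1, another beta chain, was 11.2 ± 1.53 in control, 19.6 ± 3.10 at 10 mM and 21.3 ± 1.27 at 20 mM (SD, n = 3). In both ratios all treated libraries lay above all control libraries. The ratio of LAMA5 to LAMA3, the main alpha chains that both fell at 20 mM, was 8.17 ± 0.670 in control and 9.91 ± 0.468 at 20 mM (SD, n = 3), again with no overlap. These ratios were chosen after the values were seen and are given without a test.

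**Figure D3:**
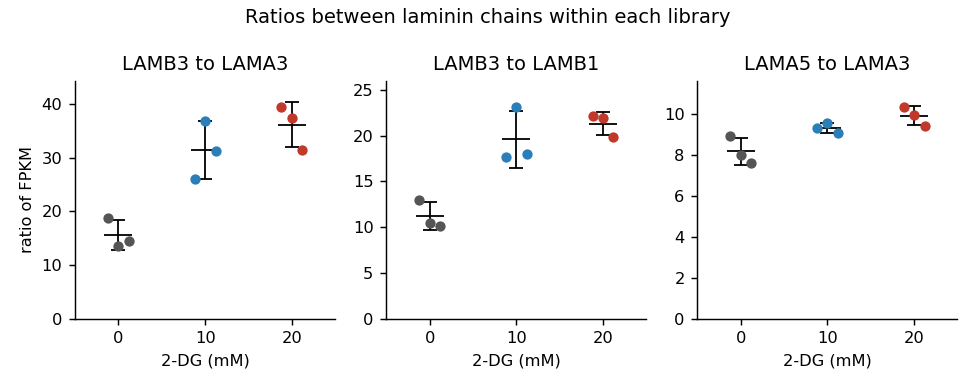
Ratios of FPKM between laminin chains in each library against 2-DG dose, with the mean and SD of 3 libraries as bars. LAMB3 against LAMA3, LAMB3 against LAMB1 and LAMA5 against LAMA3 are higher in every treated library than in any control library.

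LAMA1 (ENSG00000101680, GRCh38 chr18:6941744-7117814), the alpha chain of the laminin of early embryonic basement membranes, was low but rose at both doses. It stood at 0.101, 0.231 and 0.164 FPKM in control, 0.752, 0.608 and 0.703 at 10 mM and 0.820, 0.842 and 0.858 at 20 mM, from 280 reads over the control libraries, 1196 at 10 mM and 1384 at 20 mM. No treated library came near the controls. The log2 fold change of FPKM + 1 was 0.54 ± 0.060 (SE, limma adjusted p = 1.69e-04) and 0.66 ± 0.060 (SE, limma adjusted p = 3.03e-05), a scale that understates low genes, and the ratio of mean FPKM was 4.16 at 10 mM and 5.09 at 20 mM. With a pseudocount of 0.1 or on the recovered reads the log2 fold change was larger, up to 2.15 at 10 mM and 2.46 at 20 mM.

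LAMA5 (ENSG00000130702, GRCh38 chr20:62307955-62367312), the most abundant alpha chain and part of laminin-511 and laminin-521, stood at 71.5, 87.0 and 69.8 FPKM in control, 73.0, 55.5 and 55.5 at 10 mM and 55.2, 57.2 and 64.7 at 20 mM. All 20 mM libraries lay below control, and 10 mM replicate 1 lay within it. It made up 88.6% ± 0.852 of the FPKM of the alpha chains in control and 89.5% ± 0.314 at 20 mM (SD, n = 3). At 20 mM it fell by 0.36 ± 0.12 (SE, limma adjusted p = 0.0425) on the log2 scale, and at 10 mM the value was -0.31 ± 0.12 (SE, limma adjusted p = 0.0809). The 20 mM call was lost without control replicate 1, control replicate 2, 20 mM replicate 1 or 20 mM replicate 2 (log2 fold change -0.40 to -0.26, limma adjusted p 0.0587 to 0.144, against 0.0127 to 0.144 over all alternatives). It was also lost with all genes above 0 tested, under median-ratio scaling, without control replicate 1 and 10 mM replicate 2 together and without the 4 length-linked libraries. At 10 mM LAMA5 was called lower without 10 mM replicate 1 (log2 fold change -0.44, limma adjusted p 0.0123, against 0.0123 to 0.245 over all alternatives) and without control replicate 2 and 10 mM replicate 1 together and with the trend on gene length removed. ADRM1, a proteasome gene on the opposite strand, shares 244 exon bases with LAMA5 and stood at 119.8 FPKM in control and 104 at 20 mM, and without strand in the counting, which the sources used here do not give, reads of the shared bases cannot be told apart. LAMA4, a chain of vessel and muscle basement membranes, stood at 0.193, 0.225 and 0.265 FPKM in control, 0.192, 0.208 and 0.172 at 10 mM and 0.135, 0.0923 and 0.151 at 20 mM, and only the 20 mM group lay apart from control. It had 290 reads in control, 254 at 10 mM and 154 at 20 mM. It fell at 20 mM, with a log2 fold change of -0.12 ± 0.040 (SE, limma adjusted p = 0.0338) and a mean FPKM 1.81 times lower, and this call was lost without control replicate 2, control replicate 3, 20 mM replicate 1 or 20 mM replicate 2 (log2 fold change -0.13 to -0.10, limma adjusted p 0.0703 to 0.124, against 0.0183 to 0.178 over all alternatives). It was also lost with all genes above 0 tested, without control replicate 2 and 10 mM replicate 1 together, without the 4 length-linked libraries and with the trend on gene length removed. LAMA2, the muscle laminin chain, was not called, at 49 to 82 reads per group.

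Of the other beta and gamma chains, LAMB1 (ENSG00000091136, GRCh38 chr7:107923799-108003255) stood at 11.7, 14.1 and 13.2 FPKM in control, 11.6, 9.26 and 10.6 at 10 mM and 9.56, 9.78 and 10.9 at 20 mM. No treated library reached the lowest control, replicate 1. It fell by 0.28 ± 0.095 (SE, limma adjusted p = 0.0469) and by 0.33 ± 0.095 (SE, limma adjusted p = 0.0202) on the log2 scale. Both calls lay near the threshold. The 10 mM call was lost without control replicate 2, control replicate 3, 10 mM replicate 2, 10 mM replicate 3, 20 mM replicate 1, 20 mM replicate 2 or 20 mM replicate 3 (log2 fold change -0.30 to -0.21, limma adjusted p 0.0560 to 0.150, against 0.00760 to 0.150 over all alternatives), and the 20 mM call without control replicate 2, control replicate 3, 20 mM replicate 1 or 20 mM replicate 2 (log2 fold change -0.32 to -0.28, limma adjusted p 0.0582 to 0.0747, against 0.00288 to 0.0747 over all alternatives). The 10 mM call was also lost with all genes above 0 tested, without control replicate 2 and 10 mM replicate 1 together and without the 4 length-linked libraries, and the 20 mM call with all genes above 0 tested. LAMB2, the beta chain of laminin-521, was not called and had log2 fold changes of -0.05 (95% interval -0.20 to 0.09) and -0.04 (-0.19 to 0.11), the last with the opposite sign under median-ratio scaling. LAMC1, the gamma chain of most laminins, was not called either, at -0.01 (-0.28 to 0.26) and 0.03 (-0.24 to 0.30), the first with the opposite sign under median-ratio scaling.

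**Figure D4:**
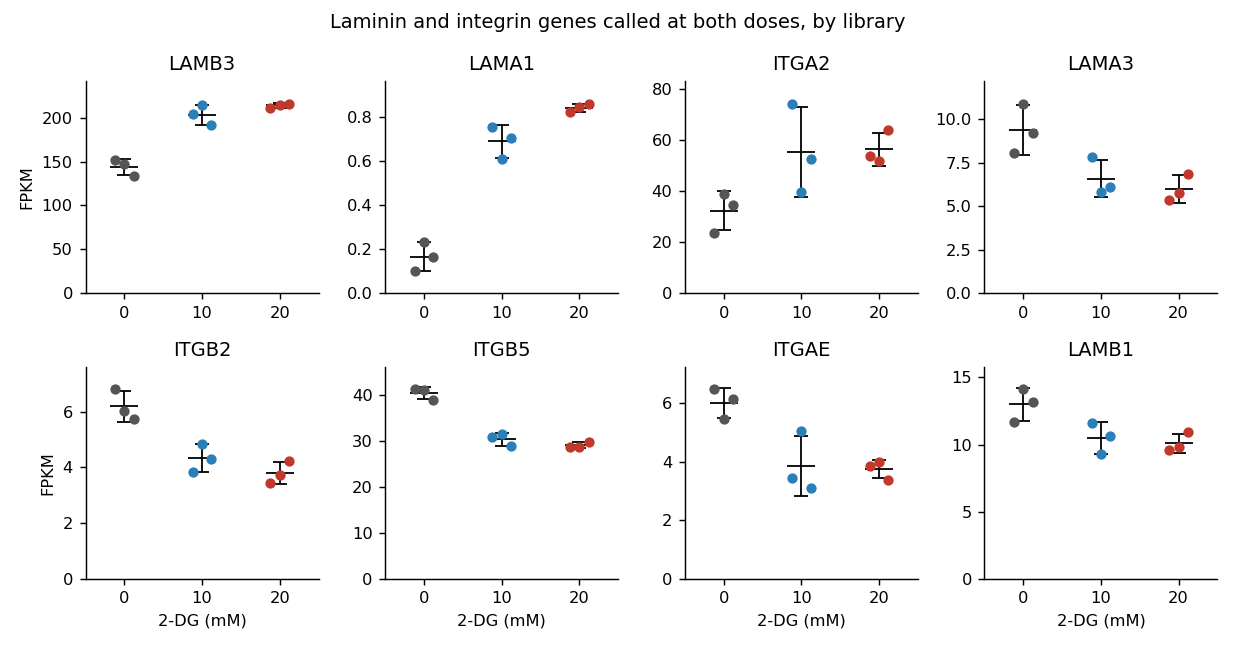
FPKM of 8 genes called at both doses, with a point per library and the mean and SD of 3 libraries as bars, against 2-DG dose in mM, each axis starting at 0. LAMB3, LAMA1 and ITGA2 are higher and LAMA3, ITGB2, ITGB5, ITGAE and LAMB1 lower in all treated libraries than in any control library. Of all 16570 genes tested, 6717 at 10 mM and 8825 at 20 mM also had no overlap with control.

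Of the collagen-binding alpha subunits, ITGA2 rose and ITGA1 fell. ITGA2 (ENSG00000164171, GRCh38 chr5:52989326-53094779), which pairs with ITGB1 as a collagen receptor, stood at 23.8, 38.8 and 34.7 FPKM in control, 74.3, 39.6 and 52.5 at 10 mM and 53.7, 51.9 and 63.9 at 20 mM. Control replicate 1 was the lowest library and 10 mM replicate 1 the highest, and 10 mM replicate 2 lay just above the highest control. Its log2 fold change was 0.74 ± 0.22 (SE, limma adjusted p = 0.0323) and 0.80 ± 0.22 (SE, limma adjusted p = 0.0183). The 10 mM call was lost without control replicate 1, control replicate 3, 10 mM replicate 1 or 10 mM replicate 3 (log2 fold change 0.51 to 0.80, limma adjusted p 0.0577 to 0.105, against 0.00221 to 0.114 over all alternatives), and the 20 mM call without control replicate 1 or 20 mM replicate 3 (log2 fold change 0.60 to 0.71, limma adjusted p 0.0621 to 0.0644, against 7.43e-04 to 0.0724 over all alternatives). The 10 mM call was also lost with all genes above 0 tested and without the 4 length-linked libraries, and the 20 mM call with all genes above 0 tested. ITGA1 (ENSG00000213949, GRCh38 chr5:52787896-52959210) stood at 1.46, 2.13 and 2.17 FPKM in control, 1.72, 1.34 and 1.59 at 10 mM and 1.11, 1.14 and 1.44 at 20 mM. All 20 mM libraries lay under control replicate 1, the lowest control, replicate 3 by little, and the 10 mM group overlapped with control. At 20 mM it fell by 0.38 ± 0.12 (SE, limma adjusted p = 0.0299), a call lost without control replicate 2, control replicate 3, 20 mM replicate 1 or 20 mM replicate 2 (log2 fold change -0.36 to -0.32, limma adjusted p 0.0915 to 0.102, against 0.00430 to 0.102 over all alternatives) and with all genes above 0 tested and without control replicate 2 and 10 mM replicate 1 together. PELO, a ribosome rescue gene on the same strand, shares 475 exon bases with ITGA1 and had means of 21.9 FPKM in control and 29.9 at 20 mM, a part in the ITGA1 value that was not tested. The ratio of ITGA2 to ITGA1 was 16.8 ± 1.19 in control, 35.2 ± 7.07 at 10 mM and 46.1 ± 2.08 at 20 mM (SD, n = 3), and no treated library overlapped with control. ITGA10 was not called, with log2 fold changes of -0.10 and -0.08.

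The laminin-binding alpha subunits are ITGA3, ITGA6 and ITGA7. ITGA3, the main alpha subunit in these cells, stood at 173, 177 and 161 FPKM in control, 194, 179 and 180.2 at 10 mM and 193, 189 and 198 at 20 mM. All treated libraries lay above control, 10 mM replicate 2 by little. It rose at 20 mM by 0.18 ± 0.061 (SE, limma adjusted p = 0.0402), a ratio of means of 1.14, and the call was lost without control replicate 1, control replicate 2, control replicate 3, 20 mM replicate 1, 20 mM replicate 2 or 20 mM replicate 3 (log2 fold change 0.14 to 0.21, limma adjusted p 0.0521 to 0.135, against 0.0114 to 0.135 over all alternatives) and with all genes above 0 tested. ITGA6, the partner of ITGB4 in hemidesmosomes, stood at 33.5, 44.0 and 45.7 FPKM in control, 40.6, 28.2 and 38.3 at 10 mM and 30.5, 33.1 and 37.8 at 20 mM. The treated groups overlapped with control. It was not called, at -0.20 ± 0.15 (SE, limma adjusted p = 0.357) and -0.27 ± 0.15 (SE, limma adjusted p = 0.204), and was called lower at 20 mM without the 4 length-linked libraries and once control replicate 1 and 10 mM replicate 2 were left out (log2 fold change -0.40, limma adjusted p = 0.00879, against 0.00879 to 0.456 over all alternatives). ITGA7, a laminin receptor subunit of muscle, stood at 0.130, 0.153 and 0.0706 FPKM in control, 0.0376, 0.0512 and 0.0449 at 10 mM and 0.0391, 0.0221 and 0.00999 at 20 mM, with all treated libraries under control. It fell at 20 mM from few reads, 115 in control, 45 at 10 mM and 22 at 20 mM. Its log2 fold change of FPKM + 1 was -0.13 ± 0.036 (SE, limma adjusted p = 0.0193), its mean FPKM was 4.97 times lower, and the call was lost without control replicate 1, control replicate 2, 20 mM replicate 2 or 20 mM replicate 3 (log2 fold change -0.13 to -0.10, limma adjusted p 0.0556 to 0.0684, against 0.00425 to 0.366 over all alternatives). It was also lost without control replicate 1 and 10 mM replicate 2 together, without control replicate 2 and 10 mM replicate 1 together, without the 4 length-linked libraries and with the trend on gene length removed. At 10 mM ITGA7 was called lower without control replicate 3 (log2 fold change -0.13, limma adjusted p 0.0277, against 0.0277 to 0.744 over all alternatives), with a pseudocount of 0.1 and by limma-voom on the recovered reads.

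Of the subunits that bind the RGD sequence of fibronectin and vitronectin, ITGA5, the fibronectin receptor's alpha subunit, stood at 42.8, 45.3 and 42.7 FPKM in control, 50.6, 47.9 and 45.3 at 10 mM and 50.6, 49.7 and 49.3 at 20 mM. It rose at 20 mM by 0.19 ± 0.055 (SE, limma adjusted p = 0.0225), with no overlap with control, and the call was lost without control replicate 1, control replicate 3, 20 mM replicate 1, 20 mM replicate 2 or 20 mM replicate 3 (log2 fold change 0.18 to 0.20, limma adjusted p 0.0571 to 0.0807, against 0.00879 to 0.0807 over all alternatives). ITGAV, which pairs with several beta subunits, stood at 4.92, 8.78 and 7.53 FPKM in control, 9.28, 4.67 and 6.73 at 10 mM and 5.77, 5.31 and 6.97 at 20 mM. Its groups overlapped, and its log2 fold changes of -0.04 (95% interval -0.55 to 0.46) and -0.18 (-0.69 to 0.33) were not called.

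ITGAE (ENSG00000083457, GRCh38 chr17:3714628-3801243), the alpha subunit that binds E-cadherin and is known from T cells of epithelia, stood at 6.47, 5.46 and 6.13 FPKM in control, 3.43, 5.04 and 3.11 at 10 mM and 3.85, 3.98 and 3.39 at 20 mM. It fell by 0.55 ± 0.14 (SE, limma adjusted p = 0.0140) and by 0.57 ± 0.14 (SE, limma adjusted p = 0.00949), with 10 mM replicate 2 the highest treated library. The 10 mM call was lost without 10 mM replicate 3 (log2 fold change -0.44, limma adjusted p 0.0512, against 9.24e-04 to 0.0550 over all alternatives) and without control replicate 2 and 10 mM replicate 1 together. HASPIN, a mitotic kinase gene on the opposite strand, shares 427 exon bases with ITGAE and went from 6.55 ± 0.741 FPKM to 3.03 ± 0.374 at 20 mM (SD, n = 3). Its part in the ITGAE value was not tested.

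Of the beta subunits, ITGB5 and ITGB2 fell at both doses and the other 5 tested were not called. ITGB5 (ENSG00000082781, GRCh38 chr3:124761948-124901418), a partner of ITGAV, stood at 41.2, 41.1 and 38.9 FPKM in control, 30.8, 31.6 and 28.8 at 10 mM and 28.7, 28.7 and 29.8 at 20 mM. The groups were far apart for their spread, and the log2 fold change was -0.40 ± 0.054 (SE, limma adjusted p = 5.16e-04) and -0.46 ± 0.054 (SE, limma adjusted p = 1.53e-04). ITGB2 (ENSG00000160255, GRCh38 chr21:44885953-44931989), the beta subunit of the leukocyte integrins, stood at 6.80, 6.03 and 5.73 FPKM in control, 3.85, 4.85 and 4.31 at 10 mM and 3.45, 3.72 and 4.24 at 20 mM. It fell by 0.43 ± 0.10 (SE, limma adjusted p = 0.0104) and by 0.58 ± 0.10 (SE, limma adjusted p = 0.00156), with no overlap with control. Both genes kept their calls without each library, and the ITGB2 call at 10 mM was lost without control replicate 2 and 10 mM replicate 1 together and without the 4 length-linked libraries. ITGB2-AS1, which shares 303 exon bases on the opposite strand, stood at 2.31, 1.98 and 1.63 FPKM in control, 1.24, 1.06 and 1.14 at 10 mM and 0.862, 1.03 and 1.00 at 20 mM, and its part in the ITGB2 value was not tested. The alpha partners of ITGB2 were at or near 0, as given above.

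ITGB1 (ENSG00000150093, GRCh38 chr10:32900319-33005792), the partner of most alpha subunits, stood at 55.3, 71.6 and 68.1 FPKM in control, 57.6, 40.5 and 53.2 at 10 mM and 48.2, 47.9 and 55.0 at 20 mM. All 20 mM libraries lay under the lowest control, replicate 1, and 10 mM replicate 1 lay above it. Its log2 fold changes of -0.37 ± 0.13 (SE, limma adjusted p = 0.0657) and -0.36 ± 0.13 (SE, limma adjusted p = 0.0623) were not called. It was called lower at 10 mM without control replicate 1 or 10 mM replicate 1 (log2 fold change -0.48 to -0.47, limma adjusted p 0.0323 to 0.0326, against 0.0149 to 0.186 over all alternatives), and at 20 mM without control replicate 1, 10 mM replicate 1 or 10 mM replicate 2 (log2 fold change -0.47 to -0.36, limma adjusted p 0.0181 to 0.0438, against 0.00227 to 0.182 over all alternatives). It was also called lower at both doses with only genes at a mean of 1 FPKM or more tested, by limma-voom on the recovered reads, without control replicate 1 and 10 mM replicate 2 together and with the trend on gene length removed, and at 20 mM without the 4 length-linked libraries. The pseudogene ITGB1P1, a near copy of ITGB1, was listed at 8.74, 12.9 and 12.6 FPKM in control, 11.4, 6.75 and 10.5 at 10 mM and 10.7, 10.4 and 10.5 at 20 mM, so the split of reads between them is uncertain. ITGB4, the hemidesmosome subunit, had log2 fold changes of -5.42e-04 (95% interval -0.15 to 0.15), positive under median-ratio scaling, and 0.02 (-0.13 to 0.17). ITGB3, ITGB7 and ITGB8 had means under 1 FPKM and were not called, and ITGB7 shares 1886 of its exon bases with ZNF740 on the opposite strand.

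Genes that work with integrins were taken from 3 lists, with the called genes named chosen by log2 fold change of FPKM + 1, an order that can differ by ratio of mean FPKM. Of 36 adaptors tested, of 39 listed, which link beta subunits to actin or signal from them, 6 rose and 5 fell at 10 mM, beside 12.1% and 17.5% of all genes. At 20 mM 8 rose and 6 fell, beside 15.4% and 21.6%, with a median log2 fold change of 0.03, against -0.02 for all genes. At 10 mM 3 rose without control replicate 1 and 8 fell without 10 mM replicate 1, and at 20 mM 13 rose without the 4 length-linked libraries. Among those that rose at 20 mM, with log2 fold changes ± SE, were FERMT1 (0.66 ± 0.11), a kindlin that activates integrins, APBB1IP (0.63 ± 0.071), which brings talin to the membrane, and PXN (0.43 ± 0.10), paxillin. Among those that fell were TNS4 (-1.36 ± 0.089), TNS3 (-0.89 ± 0.13) and TNS2 (-0.47 ± 0.073), all tensins, and VCL (-0.62 ± 0.11), vinculin. TNS4 stood at 11.9, 14.5 and 12.7 FPKM in control, 5.65, 5.04 and 5.11 at 10 mM and 4.86, 4.35 and 4.13 at 20 mM, lower in all treated libraries than in any control library. Over these 7 genes the limma adjusted p ran from 3.50e-06 to 0.00654. The talin and kinase genes TLN1, ILK and PTK2 were not called. ILK was low, at means of 0.302 FPKM in control, 0.449 at 10 mM and 0.341 at 20 mM, where this scale understates a change. The kinase gene SRC was called higher at 20 mM (0.41 ± 0.093, SE, limma adjusted p = 0.00704) and not at 10 mM (limma adjusted p = 0.0823).

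Of 16 membrane partners, 1 rose and 11 fell at 10 mM, beside 12.1% and 17.5% of all genes. At 20 mM 2 rose and 11 fell, beside 15.4% and 21.6%, with a median log2 fold change of -0.47. Without single libraries, 2 rose at 10 mM with 10 mM replicate 1 or 2 left out, and at 20 mM 4 rose with 10 mM replicate 1 left out and 1 with 20 mM replicate 1 or 2 left out. Without control replicate 2 and 10 mM replicate 1, 7 fell at 10 mM and 4 rose at 20 mM. The 4 length-linked libraries left out together gave 2 higher at 10 mM and 4 at 20 mM. CD82 (-1.10 ± 0.058), a tetraspanin, and the syndecans SDC1 (-0.98 ± 0.060) and SDC4 (-0.96 ± 0.052), matrix receptors that carry heparan sulfate, fell, as did CAV1 (-0.71 ± 0.062), the caveolae protein. SDC4 stood at 140.2, 139 and 138 FPKM in control, 75.9, 75.6 and 71.8 at 10 mM and 67.9, 73.1 and 72.1 at 20 mM, with no overlap between treated and control libraries. COL17A1 (0.81 ± 0.086), a hemidesmosome collagen, and CD63 (0.39 ± 0.11), a tetraspanin of late endosomes, rose, and the CD63 call was lost without control replicate 2 or 20 mM replicate 1 or 2 (log2 fold change 0.32 to 0.38) and with all genes above 0 tested. The limma adjusted p of these 6 genes ran from 9.68e-07 to 0.0163.

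Of 26 matrix ligands and counter-receptors tested, of 28 listed, 2 rose and 12 fell at 10 mM, beside 12.1% and 17.5% of all genes. At 20 mM 3 rose and 13 fell, beside 15.4% and 21.6%, with a median log2 fold change of -0.17. Without the 4 length-linked libraries, 1 rose and 7 fell at 10 mM. TNC (1.86 ± 0.13), the adhesion modulator tenascin-C, rose, at 4.32, 4.78 and 3.56 FPKM in control, 15.5, 11.0 and 11.0 at 10 mM and 18.3, 16.8 and 18.3 at 20 mM, and the groups did not overlap with control. SPP1 (0.62 ± 0.075), osteopontin, and NTN4 (0.32 ± 0.10), a netrin that binds laminin, rose as well, with SPP1 above TNC by ratio of mean FPKM (5.14 against 4.22). SPP1 was low, at means of 0.150 FPKM in control and 0.770 at 20 mM, from 116 and 583 reads. The NTN4 call was lost without control replicate 1 or 3 or 20 mM replicate 2 or 3 (log2 fold change 0.26 to 0.33), with all genes above 0 tested and without control replicate 1 and 10 mM replicate 2 together. Among those that fell were HSPG2 (-1.62 ± 0.21), the basement membrane proteoglycan perlecan, THBS1 (-1.01 ± 0.22), thrombospondin-1, COL4A2 (-0.78 ± 0.076), a type IV collagen chain, and EDIL3 (-0.75 ± 0.14), an RGD ligand. HSPG2 stood at 7.80, 11.7 and 7.22 FPKM in control, 4.38, 2.05 and 2.54 at 10 mM and 2.09, 2.11 and 2.31 at 20 mM, with each treated library under each control. The limma adjusted p of these 7 genes ran from 5.95e-06 to 0.0251. FN1, fibronectin, was not called.

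**Figure D5:**
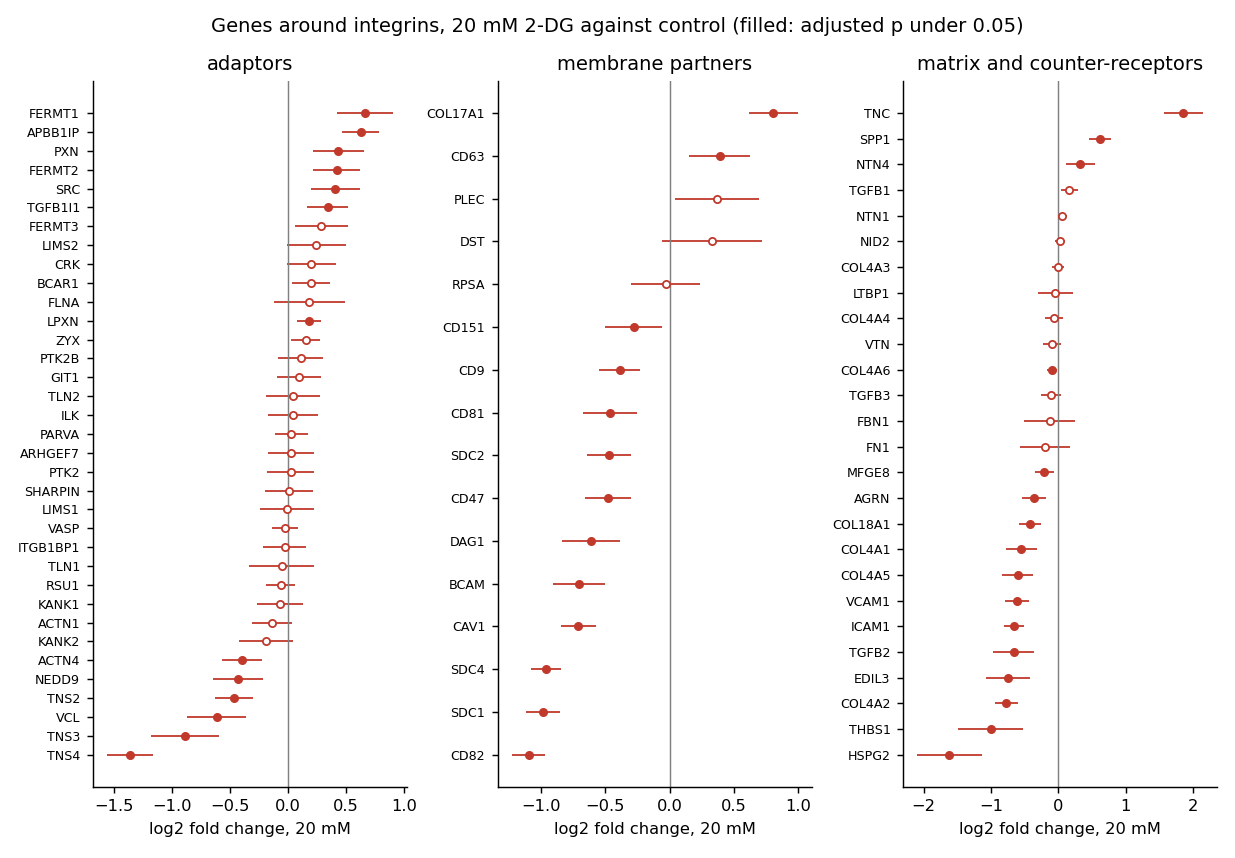
Log2 fold change of FPKM + 1 at 20 mM 2-DG against control, with 95% intervals from limma, for 35 adaptors, 16 membrane partners and 26 matrix genes tested. Filled points are called at an adjusted p under 0.05, and 11 of the 16 membrane partners and 13 of the 26 matrix genes are called lower.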

How the data were processed

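The authors deposited FPKM per gene for each of the 9 libraries. The labels name a SMARTER mRNA library kit, the submitters' processing notes name GRCh38 and hg38, and the aligner, the counter and the use of strand are not given in the sources used here. The study names DESeq2 for its own tests, which was not run here.

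Library totals were recovered as the totals that make FPKM times gene length a whole number of reads (tolerance 0.002 reads), with the exon length of GENCODE 29 or, where that gave no whole reads, a length taken from the steps. A length was found for all 32806 genes above 0, for 49.2% of them the GENCODE length. Positions and exon overlaps come from GENCODE 29, matched by gene identifier, and promoters from RefSeq, with the start nearest most GENCODE transcript starts. The 16570 genes that reached 10 reads, scaled to the median total, in 3 libraries and 15 reads over all libraries were tested. They were fitted with limma 3.58.1 in R 4.3.3, with a trend and all 3 groups in the fit, on log2(FPKM + 1), a pseudocount of 1 that understates the change of low genes. The fit was tested on simulated reads. The alternatives were a pseudocount of 0.1, other filters, median-ratio scaling, the study's 2-fold rule, limma-voom on recovered reads, a replicate block, each library left out and, added after the data were seen, 2 opposed pairs of libraries left out singly and together, a trend on gene length removed and the 2-fold rule on recovered reads. The rule names every member above 0, and per list the 4 genes called in each direction at 20 mM with the largest log2 fold change. TLN1, ILK, PTK2, SRC, FN1, the markers called and the overlapping genes were chosen after their values were seen. Some genes that the counts include are not reported here. The members and lists were chosen with earlier results of these data known.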

Additional observations from a re-analysis of the deposited data

How the results depend on the processing

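All 9 calls at 10 mM and 15 at 20 mM kept their sign in every alternative, and 0 of them kept the call in every alternative, since 2-fold and an unadjusted p under 0.05 on log2(FPKM + 1), which understates low genes, called 0 higher and 0 lower at 10 mM and 0 higher and 0 lower at 20 mM, beside 1.74% and 2.92% of all genes. The same thresholds on recovered reads, chosen after the data were seen, called 1 higher, LAMA1, and 1 lower, ITGA7, at each dose. With all genes above 0 tested, 3 instead of 5 were lower at 10 mM and 5 instead of 9 at 20 mM; more genes were then tested. With single libraries left out, counts were 3 to 4 higher and 2 to 7 lower at 10 mM, and 3 to 6 higher and 4 to 10 lower at 20 mM, from fewer samples; between the doses the count was 0 in every alternative. Without control 2 and 10 mM 1, 3 were lower at 10 mM; without these and control 1 and 10 mM 2, 2 were higher and 2 lower at 10 mM, from fewer samples. With the replicate block, 3 were lower at 10 mM instead of 5, and 3 higher at 10 mM, 5 higher and 7 lower at 20 mM. The calls lost were those of ITGA2, LAMA3 and LAMB1 at 10 mM and ITGA3, LAMA4, LAMA5 and, of the list genes named, NTN4 at 20 mM. Libraries of the same number correlated at -0.406 to 0.293 in their deviations. The labels do not say whether the numbers pair libraries across groups. These correlations cannot settle it, since the 4 length-linked libraries enter them.

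Log2 fold changes near 0 of genes not called changed sign. At 10 mM these were ITGAV from -0.2554 to 0.1733 with single libraries left out, ITGB3 from -0.0291 to 0.0583 with single libraries left out and -0.0392 without control 1 and 10 mM 2, ITGB4 from -0.0510 to 0.0357 with single libraries left out and 0.037 under median-ratio scaling, 0.0378 by limma-voom, 0.042 without control 1 and 10 mM 2, 0.0715 without all 4, 0.0222 with the length trend removed, ITGB7 from -0.0385 to 0.0584 with single libraries left out and -0.0205 without control 2 and 10 mM 1, -0.0179 without all 4, and LAMC1 from -0.1415 to 0.0943 with single libraries left out and 0.0249 under median-ratio scaling, 0.0247 by limma-voom, 0.0117 without control 1 and 10 mM 2, 0.0013 with the length trend removed. At 20 mM they were ITGB4 from -0.0304 to 0.0642 with single libraries left out, ITGB7 0.024 without all 4, 0.0022 with the length trend removed, LAMA2 from -0.0028 to 0.0214 with single libraries left out, LAMB2 0.0124 under median-ratio scaling, 0.0126 by limma-voom, 0.0729 without all 4, and LAMC1 from -0.0540 to 0.1195 with single libraries left out and -0.054 without control 1 and 10 mM 2. The cause was not tested. Outside the 2-fold rule, counts for the lists at 10 mM and then 20 mM ran from 3 to 9 higher and 4 to 8 lower and from 6 to 13 higher and 5 to 6 lower for adaptors, 1 to 2 higher and 7 to 11 lower and from 1 to 4 higher and 10 to 11 lower for membrane partners, and 1 to 3 higher and 7 to 13 lower and from 2 to 4 higher and 10 to 13 lower for matrix genes. With the 2-fold rule the higher and lower counts were 0 and 1 at 10 mM and 0 and 1 at 20 mM for adaptors, 0 and 0 at 10 mM and 0 and 1 at 20 mM for membrane partners, 1 and 2 at 10 mM and 1 and 2 at 20 mM for matrix genes, and on recovered reads 0 and 1 at 10 mM and 0 and 1 at 20 mM, 1 and 0 at 10 mM and 1 and 1 at 20 mM, 3 and 5 at 10 mM and 3 and 4 at 20 mM in the same order. The 12 genes not tested had too few reads to pass the filter, and whether more depth would change this was not tested.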

Other observations

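ITGB1-DT, a noncoding transcript that starts beside ITGB1, stood at 0.755, 0.718 and 0.570 FPKM in control, 1.15, 0.958 and 0.864 at 10 mM and 1.22, 1.36 and 1.27 at 20 mM, higher in all treated libraries than in any control library. The pseudogene LAMB2P1 stood at 0.0470, 0.212 and 0.113 FPKM in control, 0.285, 0.191 and 0.323 at 10 mM and 0.377, 0.405 and 0.319 at 20 mM. Both were chosen after their values were seen.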
